A study of Mus musculus with 4 samples.

Results

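The genes described here are 10 genes of osteoblasts and osteocytes, the cells that build bone and the cells that live inside it: Runx2, Sp7, Alpl, Bglap, Ibsp, Spp1, Dmp1, Phex, Mepe and Sost. A probe belonged to them when its RefSeq accession maps to one of these symbols. Of the 10 genes, 9 had a probe, with 12 probes in all, among 20971 genes with a named probe on the array. Bglap (osteocalcin) had none by accession, so its level was not measured here, and its near-identical copies Bglap2 and Bglap3 are given in its place as genes of a separate list.

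Ears of male BALB/c mice aged 6 to 10 weeks were compared on 4 two-colour arrays. Each array held an extract of an ear exposed to diesel exhaust particles (DEP) labelled with the red dye Cy5 and an extract of an untreated control ear labelled with the green dye Cy3, which gives 4 DEP and 4 control extracts. According to the methods, inhalation lasted 1 h on each of days 1 to 5, the animals were killed on day 14, and the temporal bone area with the middle ear was taken from 9 mice. The labels call the arrays biological replicates, but the sources do not say how many mice stand behind an extract, or whether an extract is a pool. The dissected area can hold bone, marrow, muscle, epithelium and nerve, and in such a mixture fewer cells of a type and less RNA per cell cannot be told apart.

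Osteoblasts arise from mesenchymal precursors under the transcription factors Runx2 and Sp7 (osterix). They lay down type I collagen and then mineralize it with the help of the phosphatase Alpl and of acidic matrix proteins such as Ibsp and Spp1. Some osteoblasts become buried as osteocytes, which express Dmp1, Phex and Mepe, regulators of mineral and phosphate, and Sost (sclerostin), which restrains bone formation by blocking Wnt signalling. The temporal bone encloses the middle ear, and its ossicles and walls hold both cell types.

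Values are given as the log2 ratio of the DEP channel (Cy5) over the control channel (Cy3), so that 1 stands for a 2-fold higher signal in DEP, with the mean ± SD over the 4 arrays (n = 4). This direction, which follows the source names in the labels, is opposite to the one the study gives for its leading genes. The study also measured genes by quantitative PCR and reported its own array direction there. CHRM1 and EPO were raised in that measurement, and SOS1, CD4, IFNA1 and ESR1 lowered. Of 25 tested genes from the list of raised genes, 24 had a mean ratio below 0 here, with a median of -1.26. Of 11 from the list of lowered genes, 9 had a mean ratio above 0, with a median of 1.06. Most of these probes were dim: over the 9 raised and 4 lowered genes above background in every extract, the medians were -0.90 and 0.18. In the labels both treatments stand under Cy5, so every direction below holds for the channels as named by source. The dyes were not swapped, and a difference between dyes cannot be told apart from one between the groups.

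Signals are processed signals, the background- and dye-corrected intensities, scaled here between arrays. By the call of the image software, 66.6% to 70.0% of spots were well above background in Cy5 and 0% were saturated. In Cy3 that share was 69.1% and 67.9% on arrays 1 and 2 but 60.5% and 61.6% on arrays 3 and 4, where more spots had no ratio (8558 and 7475 against 6538 and 6179). Control extracts 1 and 2 stood apart by cerebellum genes, and control extracts 1, 2 and 3 by neuron genes. The summed signal of the 8 tested genes of the cerebellum list was 73100 and 71962 in control extracts 1 and 2, against 9380 and 5245 in control extracts 3 and 4 and 5825 to 9716 in the DEP extracts. The 10 neuron genes summed to 55909, 56998 and 61935 in control extracts 1 to 3, against 26163 in control extract 4 and 13395 to 35908 in the DEP extracts. Log2 ratios correlated weakly between arrays, with r from -0.22 between arrays 1 and 4 to 0.61 between arrays 1 and 2, over all probes with a ratio. The member counts and the osteocyte genes are therefore also given without arrays 1 and 2.

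None of the 9 measured genes differed between the groups after adjustment over all probes. The count at an adjusted p under 0.05 in limma, a linear model that shares the variance between probes, was 0 of 9, as it was 0% of the 17962 genes tested, where the smallest adjusted p over all probes was 0.0922. At an unadjusted p under 0.05, 2 of 9 passed, Runx2 and Dmp1, both higher in DEP, beside 9.19% of all genes higher and 7.5% lower at that limit. Without array 2, 3 or 4 in turn the count was 0 of 9. Without array 1 it was 2, now Dmp1 and Phex, while Runx2 no longer passed (unadjusted p = 0.113 in limma). Without moderation of the variance the count was 0, and after normexp and loess Runx2 was at 0.14 with a limma unadjusted p of 0.165. No member had a mean ratio past 2-fold, beside 6.21% of all genes. By their means 6 of the 9 genes were higher in DEP and 3 lower, and the median of the 9 was 0.31 against 0.04 over all genes tested. That median differed between arrays, at -0.35, 0.16, 0.68 and 0.49 on arrays 1 to 4, and it was 0.0096 without array 3 and 0.17 without array 4. Over all genes tested the median was 0.04 and 0.03 in those runs, so without array 3 the members lay below it.

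The separation of single extracts was no greater. Among the 8 member genes well above background in all 8 extracts, none had every DEP extract above every control extract, a pattern held by 7.82% of the 14286 such genes. Only Sp7 of these 8 had a ratio above 0 on all 4 arrays, as did 15.4% of those genes. Permuting the signs of 4 ratios exactly gives 8 patterns and no two-sided p below 0.125, so no member could pass such a test.

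**Figure D1:**
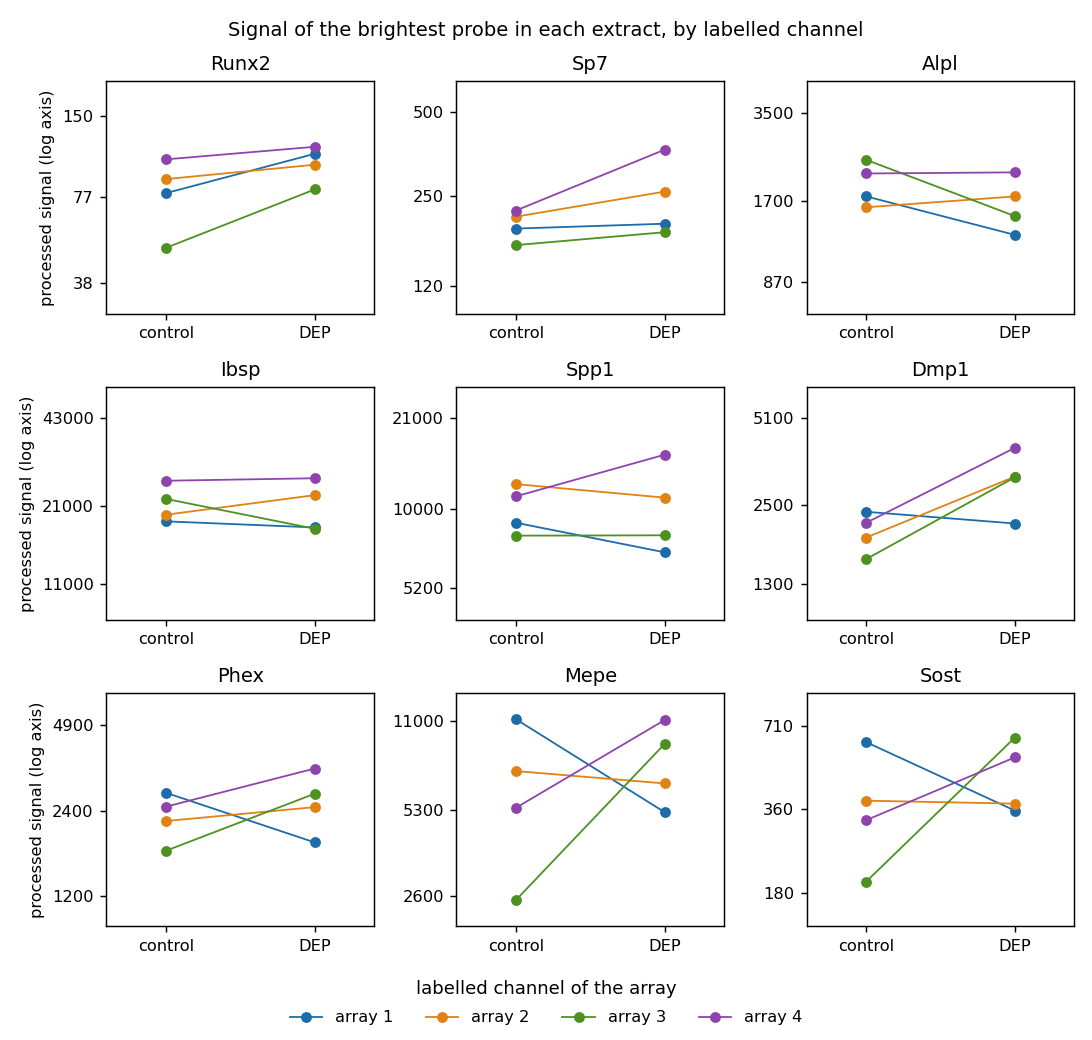
Processed signal (log axis) of the brightest probe of each of the 9 measured genes in the control and DEP extracts, with a line joining the 2 channels of an array. The lines of Sp7 and Runx2 all slope up towards DEP, those of Mepe and Sost cross, and in no panel do the groups separate.

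The transcription factors had means above 0. Runx2, the master regulator of the osteoblast lineage, had a processed signal of 110, 100, 82 and 116 in DEP extracts 1 to 4 and of 79, 89, 51 and 105 in the controls at its brightest probe A_65_P18181, which was well above background in Cy3 on 3 of 4 arrays. Each DEP extract exceeded the control of its own array, while the groups overlapped. The mean log2 ratio was 0.37 ± 0.26 (SE 0.14, unadjusted p = 0.046, limma adjusted p = 0.262).

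The other 2 Runx2 probes did not follow the first. A_52_P460545 gave 0.11 ± 0.40, with a ratio above 0 on 2 of 4 arrays, and A_52_P55876 gave -0.29 ± 0.72, with a ratio above 0 on 1 array. Their limma adjusted p-values were 0.758 and 0.612. Averaged over the 3 probes, the Runx2 ratio was 0.06, so its place among the 2 genes at an unadjusted p under 0.05 rests on 1 probe.

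Sp7, which acts downstream of Runx2 and is needed for osteoblast formation, had signals of 199, 260, 186 and 367 in DEP and of 192, 211, 167 and 222 in the controls. DEP extracts 4 and 2 were the highest of the 8, and the other two lay within the control range. Its mean ratio of 0.31 ± 0.29 came from values of 0.06, 0.30, 0.15 and 0.72 (limma adjusted p = 0.336), and it was 0.17 without array 4.

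The matrix and mineralizing genes had means at or below 0, none past the test. With an array left out, Ibsp ran from -0.13 without array 2 to 0.06 without array 3. Spp1 ran from -0.17 without array 4 to 0.11 without array 1, and Alpl from -0.37 without array 2 to -0.105 without array 3. After normexp background correction and median centring, which moved the median of all genes to 0.19, all 3 were above 0 (Ibsp 0.54, Spp1 0.45 and Alpl 0.11), and Ibsp then had a limma adjusted p of 0.0355, as 12.4% of all genes passed there. Alpl, the tissue-nonspecific alkaline phosphatase that frees phosphate for mineral, had signals of 1284, 1762, 1499 and 2147 in DEP and of 1763, 1612, 2381 and 2127 in the controls. It was lower in DEP on arrays 1 and 3 and nearly equal or higher on arrays 2 and 4, with ratios of -0.46, 0.13, -0.67 and 0.01. The mean was -0.25 ± 0.38 (limma adjusted p = 0.484).

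Ibsp (bone sialoprotein), a protein of mineralizing matrix, had signals of 17541, 22867, 17349 and 26270 in DEP and of 18436, 19463, 22174 and 25735 in the controls at probe A_55_P2075485. The groups covered nearly the same range. The mean ratio was -0.04 ± 0.24 (limma adjusted p = 0.885), and the second probe, A_55_P1986813, gave -0.07 ± 0.17 with ratios of -0.06, 0.14, -0.29 and -0.05. The 2 probes of Ibsp thus ordered the arrays alike in their lowest and highest ratio.

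Spp1 (osteopontin), made by osteoblasts and also by osteoclasts and macrophages, had signals of 6989, 10953, 8039 and 15593 in DEP and of 8912, 12240, 8016 and 11073 in the controls. Its DEP extracts spanned 2.23-fold and enclosed the control extracts, which spanned 1.53-fold. The mean ratio was -0.003 ± 0.36 (limma adjusted p = 0.993), and 0.25 without arrays 1 and 2.

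The osteocalcin copies, from a list of their own, split by array. Bglap2 had signals of 101520, 139730, 92108 and 147380 in DEP and of 148500, 108830, 129710 and 95260 in the controls. It was lower in DEP on arrays 1 and 3 and higher on arrays 2 and 4, with a mean of -0.01 ± 0.60. The brightest Bglap3 probe gave -0.09 ± 0.65 with the same signs on each array, and r between the copies was 0.99 over the 8 extracts, where near-identical transcripts may share signal.

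Another Bglap3 probe, A_66_P101477, had the opposite sign on arrays 1, 3 and 4 and the same sign on array 2. Its signals were 1882, 669, 737 and 337 in DEP and 68, 296, 131 and 730 in the controls, with ratios of 4.78, 1.18, 2.49 and -1.12. Its mean of 1.83 ± 2.47 (limma adjusted p = 0.362) was far from the -0.09 ± 0.65 and -0.19 ± 0.59 of the other Bglap3 probes. It was also much dimmer, with geometric means of 747 in DEP and 210 in the controls. The brightest Bglap3 probe had 130730 and 138680. Whether the dim probe reports the same transcript was not tested. A_66_P101477 was the highest on array 1, where the other probes were at their lowest or next to it.

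**Figure D2:**
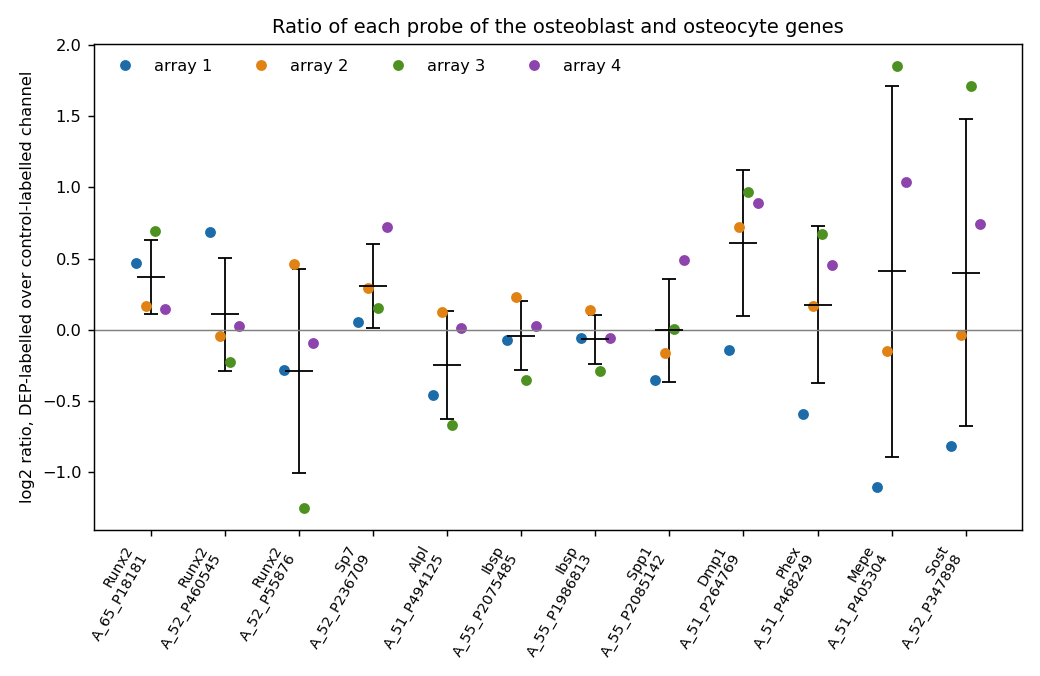
Log2 ratio of the DEP-labelled over the control-labelled channel for each of the 12 member probes on arrays 1 to 4 (points), with the mean (bar) and SD (whiskers). The osteocyte genes Mepe and Sost spread most, from -1.10 to 1.85 and from -0.81 to 1.71, and the 3 Runx2 probes have different means.

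The 4 osteocyte genes had means above 0 and the widest spread, and they varied together from extract to extract. Their promoter windows are shown here for that reason, 250 bases before to 50 bases after the annotated start, from RefSeq on GRCm38.p6. They lie at chr5:104202367-104202666 on the plus strand (Dmp1), chrX:157415237-157415536 on the minus strand (Phex), chr5:104325079-104325378 on the plus strand (Mepe) and chr11:101966966-101967265 on the minus strand (Sost). Capitals mark the letters ACCACA or, for the other strand, TGTGGT, the core that RUNX proteins are known to recognize.
Dmp1: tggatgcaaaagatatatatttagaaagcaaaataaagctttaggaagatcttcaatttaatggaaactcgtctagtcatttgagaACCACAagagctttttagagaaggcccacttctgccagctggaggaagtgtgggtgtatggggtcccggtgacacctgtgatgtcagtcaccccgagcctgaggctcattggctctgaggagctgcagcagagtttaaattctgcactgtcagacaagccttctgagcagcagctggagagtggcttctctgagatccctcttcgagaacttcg
Phex: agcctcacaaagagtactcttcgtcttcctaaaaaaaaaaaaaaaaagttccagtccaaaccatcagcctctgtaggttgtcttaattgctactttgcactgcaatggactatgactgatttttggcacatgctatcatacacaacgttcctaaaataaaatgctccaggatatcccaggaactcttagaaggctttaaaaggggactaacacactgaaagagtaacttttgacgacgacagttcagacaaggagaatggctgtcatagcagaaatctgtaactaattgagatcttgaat
Mepe: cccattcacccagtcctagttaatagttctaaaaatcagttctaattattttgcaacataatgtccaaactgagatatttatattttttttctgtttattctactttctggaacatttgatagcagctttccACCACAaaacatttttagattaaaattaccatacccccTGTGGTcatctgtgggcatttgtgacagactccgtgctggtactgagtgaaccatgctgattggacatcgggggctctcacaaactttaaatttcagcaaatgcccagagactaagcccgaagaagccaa
Sost: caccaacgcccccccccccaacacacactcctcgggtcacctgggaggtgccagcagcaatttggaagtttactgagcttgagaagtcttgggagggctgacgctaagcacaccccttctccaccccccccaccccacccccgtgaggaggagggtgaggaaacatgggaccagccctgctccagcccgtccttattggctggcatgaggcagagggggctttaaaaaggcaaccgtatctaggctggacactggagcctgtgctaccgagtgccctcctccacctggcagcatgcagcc

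These 6 letters were found at position -164 from the start in this window of Dmp1, at -118 and, on the other strand, at -80 in Mepe, and not in the windows of Phex and Sost. A second window of Dmp1, at another start, held none. Over the member genes the letters were present in 5 of 9 genes with a window that is listed, which are Bglap, Dmp1, Mepe, Runx2 and Spp1, and in 5 of their 12 windows. In all promoter windows of this length they were present in 16.8% of 32851, or in 18.9% of 27025 genes. A match here is a description of the sequence only.

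Dmp1, a matrix phosphoprotein of osteocytes needed for mineral and phosphate balance, had signals of 2145, 3154, 3136 and 3995 in DEP and of 2362, 1911, 1600 and 2157 in the controls. DEP extracts 2, 3 and 4 were above every control extract, and DEP extract 1 lay inside the control range. The mean ratio was 0.61 ± 0.51, the highest of the members, with 3 of 4 arrays above 0 (SE 0.22, unadjusted p = 0.040, limma adjusted p = 0.251).

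Phex, an endopeptidase of osteoblasts and osteocytes whose loss causes phosphate wasting, had signals of 1860, 2486, 2775 and 3414 in DEP and of 2798, 2217, 1737 and 2494 in the controls. The groups overlapped over most of their range. Its ratios were -0.59, 0.16, 0.68 and 0.45, with a mean of 0.18 ± 0.55 (limma adjusted p = 0.699).

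Mepe, a matrix phosphoglycoprotein of osteocytes, had signals of 5180, 6564, 9097 and 11061 in DEP and of 11124, 7268, 2519 and 5375 in the controls. The highest and the lowest of the 8 extracts were both controls, those of arrays 1 and 3, and the controls spanned 4.42-fold against 2.14-fold in DEP. The mean ratio was 0.41 ± 1.30 (limma adjusted p = 0.681). This SD was larger than that of 95.6% of the 14286 genes above background, whose median SD was 0.29.

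Sost, the secreted Wnt antagonist of mature osteocytes, had signals of 354, 375, 646 and 549 in DEP and of 622, 385, 198 and 328 in the controls. As with Mepe, the control of array 3 was the lowest extract and that of array 1 was high, close to the highest DEP extract. The ratios were -0.81, -0.04, 1.71 and 0.75, with a mean of 0.40 ± 1.08 (limma adjusted p = 0.631) and a 3.15-fold span among the controls. Its SD exceeded that of 93.2% of genes above background.

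Array by array, the osteocyte genes agreed in sign on 3 of the 4 arrays. All 4 were lower in DEP on array 1, and all 4 were higher on arrays 3 and 4, the arrays with the smaller share of Cy3 spots above background, whose part in the result was not tested. On array 2, Dmp1 and Phex were higher, and Mepe and Sost were at -0.15 and -0.04. The median over the 4 genes was -0.70, 0.06, 1.34 and 0.82 on arrays 1 to 4, and 0.41 over the mean ratios.

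Without array 3, the means of Dmp1, Phex, Mepe and Sost were 0.49, 0.01, -0.07 and -0.03, so that Mepe and Sost turned below 0. Without array 1 they were 0.86, 0.43, 0.92 and 0.81.

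Without arrays 1 and 2, whose controls held the most cerebellum signal, the means of Dmp1, Phex, Mepe and Sost were 0.93, 0.56, 1.45 and 1.23. All 4 then had an unadjusted p under 0.05, beside 8.36% of 17434 genes higher at that limit, and 2 of them were past 2-fold, beside 2.44% of genes that far above 0. No member reached an adjusted p under 0.05 in that fit of 2 arrays, where the limma adjusted p of the 4 genes ranged from 0.205 to 0.254. These arrays were set aside after their values were seen, and array 3, which stays in, had a control as high in summed neuron signal. By the mean log2 signal less each gene's own mean, that control was at 0.69 for neuron genes. Control extracts 1 and 2 were at 1.24 and 1.26. Arrays 3 and 4 are also the arrays on which all 4 genes were higher, so these counts are not independent of that choice.

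The likeness between members was described over the log2 signals of the 8 extracts, which share arrays in pairs and a dye within each group. Among the 4 osteocyte genes, the 6 pairs had Pearson r from 0.71 to 0.96, with a median of 0.83. Mepe and Sost were the most alike (r = 0.96, rho = 0.90), followed by Phex and Mepe (r = 0.87, rho = 0.88). Among Sp7, Alpl, Ibsp and Spp1 the 6 pairs ran from 0.23 to 0.84 with a median of 0.68, the highest being Sp7 with Spp1 and the next Alpl with Ibsp at 0.81.

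Between the 2 sets r was mostly lower. The 16 mixed pairs ran from -0.40, between Alpl and Sost, to 0.76, between Sp7 and Dmp1, with a median of 0.26. Sp7 had r of 0.67 with Phex, 0.32 with Sost and 0.23 with Alpl, the lowest pair inside its own set, while Alpl and Ibsp had r below 0 with Mepe and Sost. Runx2 was left out, since its brightest probe was not above background in every extract. With 8 extracts such values are a description, and no test was made.

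Neighbours on a chromosome fell into both sets. Dmp1, Ibsp, Mepe and Spp1 are neighbours on chromosome 5 in the RefSeq annotation of GRCm38.p6, with only the noncoding gene Gm31048 between them. Of these neighbours, Dmp1 and Mepe had r = 0.73, Ibsp and Spp1 had r = 0.72, and across the sets r was -0.13 for Ibsp and Mepe, 0.23 for Ibsp and Dmp1, 0.44 for Spp1 and Mepe and 0.48 for Spp1 and Dmp1.

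**Figure D3:**
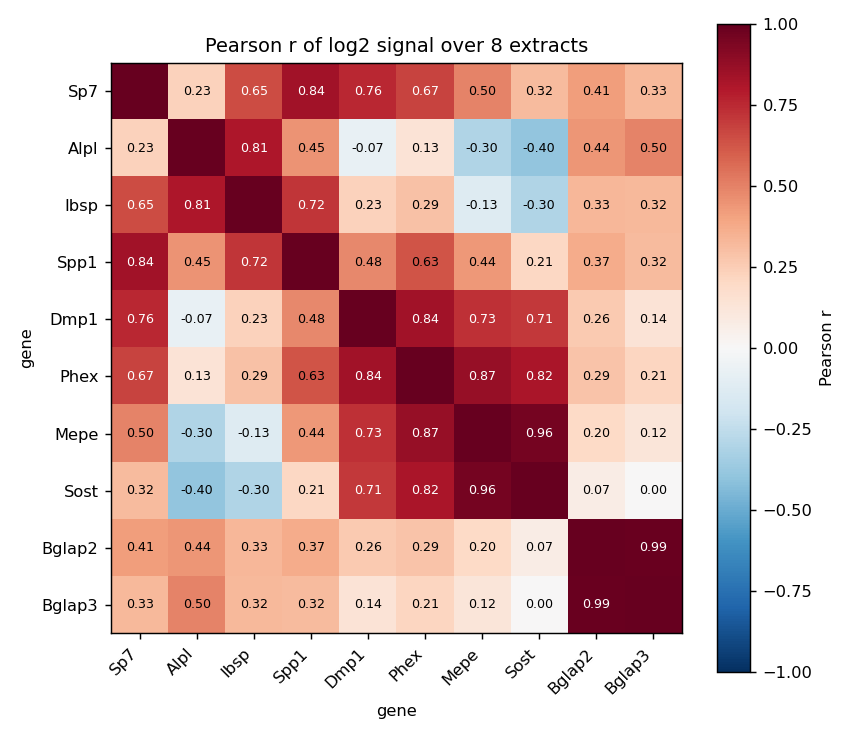
Pearson r of log2 processed signal over the 8 extracts for pairs of the 8 member genes above background and the osteocalcin copies, from blue (-1) to red (1). The block of Dmp1, Phex, Mepe and Sost holds values from 0.71 to 0.96, and the values of Alpl and Ibsp with Mepe and Sost are below 0.

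The 10 genes most like the mean profile of the 8 members, of 14278 ranked, were Oat, Arpc5, Hmgb1-rs17, Actr2, Acp1, Rpp21, Tfpi, Lsm5, Srgn and Rab8b, with r from 0.986 for Oat to 0.951 for Rab8b over the 8 extracts. Their mean ratios lay between 0.04 for Hmgb1-rs17 and 0.25 for Tfpi. All 10 had a ratio below 0 on array 1 and above 0 on arrays 2, 3 and 4. None of them is in a list of bone genes used here. Ranked by the osteocyte members alone, or by the other members alone, the 10 most alike included none of these genes.

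Other genes of bone formation were read from 7 lists with 70 tested genes, of which 4 were higher and 1 lower at an unadjusted p under 0.05 beside 9.19% and 7.5% of all genes, and none passed after adjustment (lowest limma adjusted p = 0.167). That count of 5 became 1 to 9 when an array was left out, lowest without array 2, and 28 after normexp with median centring, where 38.9% of all genes had such a p. Their median was 0.06, with 41 means above 0 and 29 below. Collagen and matrix genes of bone, 13 genes, were 4 higher and 9 lower by their means, with a median of -0.07 and with none at an unadjusted p under 0.05. The lowest were Serpinh1, the collagen chaperone, at -0.32 ± 0.55 and Col1a1, the main bone collagen chain, at -0.31 ± 0.87. The highest were Col24a1, a minor fibrillar collagen, at 0.32 ± 0.48 and Sparc (osteonectin) at 0.27 ± 0.66.

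The collagen list followed the arrays as the osteocalcin copies did, not as the osteocyte genes. Its medians were -0.46, 0.20, -0.27 and 0.70 on arrays 1 to 4, and those of Bglap2 and Bglap3 were -0.59, 0.33, -0.57 and 0.63. On array 3 the osteocyte median was 1.34 where both of these were below 0.

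Among 11 genes of mineralization, phosphate and pyrophosphate, the median was -0.09 and 1 gene had an unadjusted p under 0.05. That gene was Ank, the pyrophosphate exporter, at 0.30 ± 0.16 (limma adjusted p = 0.266, 4 of 4 arrays above 0). Galnt3, which protects Fgf23 from cleavage, was at 0.36 ± 0.60. Slc20a1, a phosphate transporter, was at -0.37 ± 0.53, and Mgp, an inhibitor of calcification, at -0.20 ± 0.65.

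The 9 further transcription factors of osteoblasts had a median of 0.09. Sox4 was at -0.45 ± 0.32 with 4 of 4 arrays below 0 (unadjusted p = 0.037, limma adjusted p = 0.246). Dlx6, a homeobox factor, was at -0.28 ± 0.26, also below 0 on all arrays. Atf4, which drives osteoblast protein synthesis, was at 0.29 ± 0.27 and Twist1, which restrains Runx2, at 0.24 ± 0.30.

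Of the ligands and receptors, 11 genes of BMP and TGF-beta signalling had a median of 0.15. Bmpr1a, a BMP receptor, was higher on all 4 arrays at 0.42 ± 0.17 (unadjusted p = 0.015, limma adjusted p = 0.189). Bmp7, a ligand, was at 0.42 ± 0.69, Bmpr2 at -0.004 ± 0.33 and the antagonist Nog at -0.27 ± 0.31.

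The 12 genes of Wnt signalling, the pathway that Sost blocks, had a median of 0.14. The antagonist Dkk1 was at 0.71 ± 0.70, with ratios of -0.24, 0.63, 1.32 and 1.15 that were below 0 on array 1 and highest on arrays 3 and 4, as those of the osteocyte genes were. Axin2, a target gene of the pathway, was at 0.38 ± 0.18 with 4 of 4 arrays above 0 (unadjusted p = 0.025, limma adjusted p = 0.218). Sostdc1, a relative of Sost, was at 0.47 ± 1.18, and the receptors Lrp6 and Lrp4, the latter an anchor for Sost, were at -0.25 ± 0.33 and -0.25 ± 0.23.

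Hormone and cell contact genes, 12 in number, had a median of 0.15. Tnfsf11 (RANKL), the osteoclast signal that osteocytes also make, was at 0.55 ± 0.23 with an unadjusted p of 0.0091 (limma adjusted p = 0.167), but it was well above background in Cy3 on 2 of 4 arrays. Its decoy receptor Tnfrsf11b was at 0.32 ± 0.44 and the vitamin D receptor Vdr at 0.28 ± 0.30. The parathyroid hormone receptor Pth1r was at -0.41 ± 0.33, below 0 on all 4 arrays, and Ostn at 0.05 ± 1.18.

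Markers of other cells of the dissected tissue were followed beside the members. All 8 genes of the list for B cell precursors of marrow were above background, with summed signals of 18291 to 37486 in DEP and of 20315 to 35544 in the controls. Their medians on arrays 1 to 4 were -0.67, 0.06, 0.70 and 0.61, and the median r of these genes with the mean profile of the osteocyte genes was 0.80 over the 8 extracts, against 0.03 for all genes above background. Rag1, the recombinase of lymphocyte precursors, was at 0.74 ± 1.19 and Igll1 at 0.59 ± 1.05, while Cd79b was at -0.18 ± 0.58 and Vpreb1 at -0.02 ± 0.71.

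The erythroid and neutrophil lists were also lowest on array 1 and highest on array 3. Erythroid genes, 8 of 8 above background, had summed signals of 226060 to 343680 in DEP and 183550 to 340350 in the controls, and medians of -0.84, 0.26, 0.45 and 0.15. Neutrophil and precursor genes, also 8 of 8, had sums of 243230 to 507500 and 303160 to 561310 and medians of -1.13, -0.03, 0.51 and 0.17. Macrophage genes, 7 of 7, had sums of 22207 to 63999 and 29713 to 75309. The median r with the osteocyte profile was 0.68, 0.66 and 0.66 for these lists, and their part in the osteocyte result was not tested.

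Skeletal muscle genes, 8 of 8 above background, had summed signals of 363740 to 581150 in DEP and of 328990 to 823100 in the controls. Their medians of -0.82, -0.54, 0.73 and 0.78 also had their lowest value on array 1, and their median r was 0.60 with the osteocyte genes and -0.28 with the other members. The highest muscle signal was in control extract 1, where Mepe and Sost were high too. The part of muscle in the result was not tested.

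Osteoclasts, the cells that resorb bone, had their highest median on array 4. Osteoclast genes, 9 of 10 above background, had summed signals of 67791 to 126720 in DEP and of 78387 to 96399 in the controls, and medians of 0.10, 0.14, -0.17 and 0.74. Their median r was 0.34 with the osteocyte genes and 0.74 with Sp7, Alpl, Ibsp and Spp1. Acp5 (tartrate-resistant acid phosphatase) was at 0.11 ± 0.35, Mmp9 at 0.44 ± 0.43, Atp6v0d2 at 0.36 ± 0.51 and Tcirg1 at -0.11 ± 0.14. Calcr, the calcitonin receptor, was at 1.43 ± 1.28, above 0 on 4 of 4 arrays (limma unadjusted p = 0.038), but well above background in Cy3 on 2 arrays.

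Cartilage genes, 10 of 12 above background, had a median of 0.16 over all 12 and of 0.02 over those 10. The medians of the 12 of -0.41, 0.16, 0.35 and 0.16 on arrays 1 to 4 were lowest on array 1 and highest on array 3, as those of the osteocyte genes were, and their median r with the osteocyte profile was 0.40. Col10a1 of hypertrophic cartilage was at 0.50 ± 0.84, Sox9 at 0.50 ± 0.66, Comp at -0.36 ± 0.31 and Col9a2 at -0.23 ± 0.34. Matn3 was at 1.27 ± 0.60 (limma unadjusted p = 0.0042), but well above background in Cy3 on 1 array. Fibroblast genes, 7 of 7, had a median of 0.13. Of the 6 tooth genes, 4 lacked a ratio on at least 3 arrays and were not tested, among them Dspp of dentin and Enam of enamel. The summed signal of the 2 tested, Amelx and Odam, was 54 to 238 in DEP and 38 to 112 in the controls.

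The brain lists had the lowest medians, -1.26 for neurons and -1.56 for cerebellum, with -0.92 for astrocytes and myelin, and their values on arrays 1 and 2 were below those on arrays 3 and 4. Their median r with the osteocyte profile was -0.09, 0.03 and 0.10. Epithelial genes had a median of 0.21 and medians of 0.78, 0.46, -0.14 and -0.54 on arrays 1 to 4, highest on array 1, where the osteocyte genes were lowest. Inner ear genes, 4 of 7 tested being above background, had a median of 0.04.

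**Figure D4:**
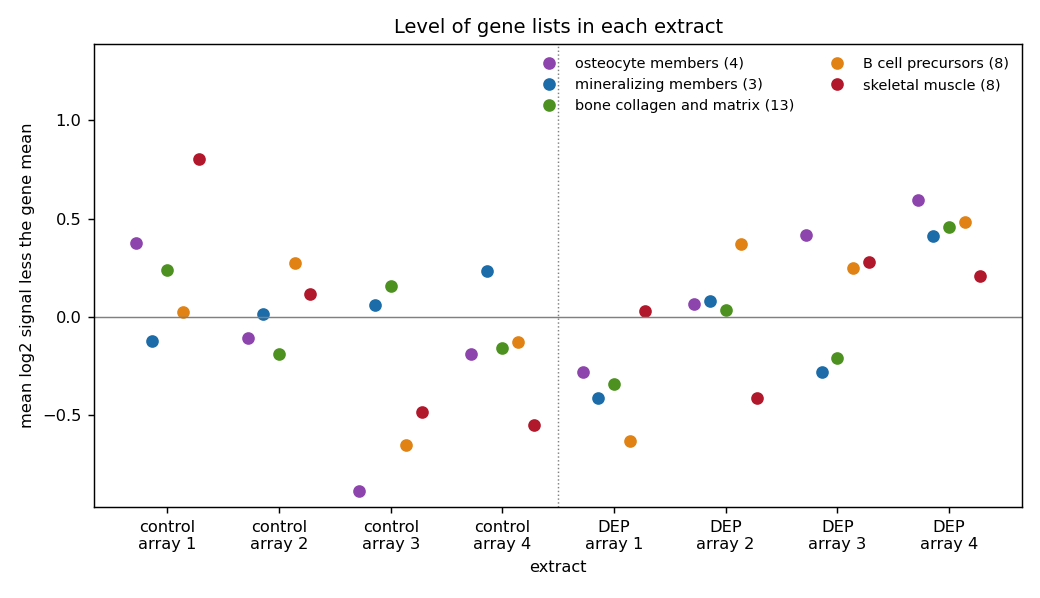
Mean over the genes of a list of the log2 signal less the gene's own mean over the 8 extracts, for each control and DEP extract. Control extract 3 is lowest for the osteocyte members (-0.88) and the B cell precursors (-0.65), while the mineralizing members are at 0.06 there.

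**Figure D5:**
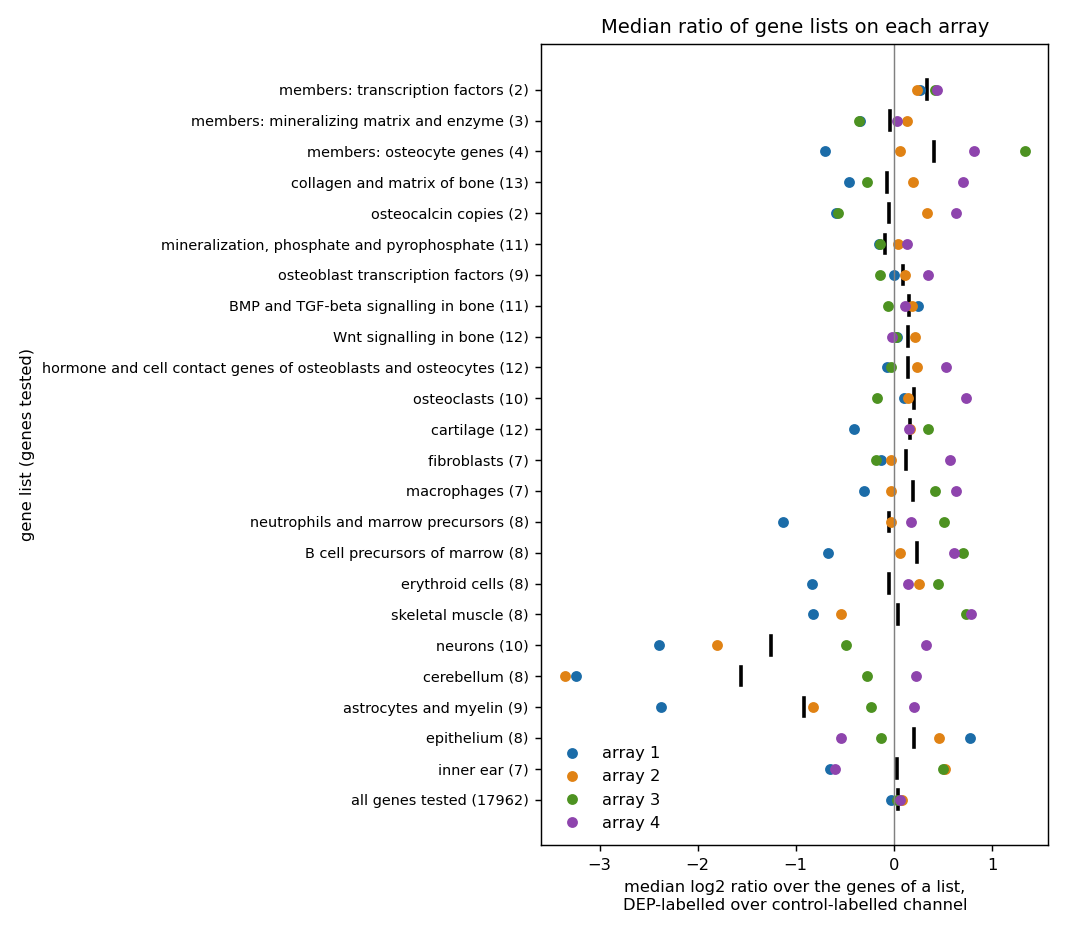
Median log2 ratio over the tested genes of each list on arrays 1 to 4 (points) and over the mean ratios (black bar). The osteocyte genes run from -0.70 on array 1 to 1.34 on array 3, and the brain lists lie far below 0 on arrays 1 and 2.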

How the data were processed

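RNA of mouse ears was compared on 4 two-colour arrays of 1 slide and 1 scan, so no batch could be tested. The authors quantified spots with Agilent Feature Extraction 10.10.1.1. The deposited processed intensity is corrected for background and dye, and the deposited log10 ratio is Cy5 over Cy3, written as 0 where none was given.

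Ratios were turned to log2. Flagged spots (164 to 274 per array) and spots without a ratio (6179 to 8558 of 43020) were left out, and spots of a probe were averaged. Probes were named by accession through RefSeq of GRCm38.p6 (27655 of 39429 matched). In limma 3.58.1 (R 4.3.3), an intercept was fitted with lmFit and eBayes to the 31577 probes with at least 3 ratios (two-sided). P-values were adjusted by Benjamini and Hochberg's method across those probes. A gene took its probe of highest mean signal. Printed signals are the authors' processed intensities after Aquantile scaling between arrays.

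The members and lists were chosen with earlier results of these data known. Named were all member probes, from each other list the 2 highest and 2 lowest means among genes above background on all arrays, and the 10 genes most like the members. Ank, Sox4, Bmpr1a, Axin2 and Tnfsf11 are the 5 genes of the 7 bone formation lists at an unadjusted p under 0.05, of which Axin2 and Tnfsf11 fall outside that rule. These and the marker genes Calcr and Matn3 were chosen after their values were seen. For lists of cells other than bone, cartilage and B cell precursors, list values stand in place of single genes.

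On simulated ratios of 29925 probes for DEP over control, 200 were changed and 87 called, 7 of them false. On the log2 scale the fit recovered 61 of 100 shifts of 2, and 19 of 100 shifts of 1. The simulated noise was drawn independently for each probe with its own SD, whereas in the real ratios whole lists moved together on an array. These rates therefore need not hold for the real data. The number of arrays limits precision. Alternatives were normexp (offset 50) with loess or median centring, the deposited ratio table, filters on dim or flagged spots, an intensity trend, no moderation, the mean of probes and each array left out. Tables and figures used Python 3.11.15, pandas 2.3.3, numpy 2.4.6, scipy 1.17.1 and matplotlib 3.10.9.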

Additional observations from a re-analysis of the deposited data

How the results depend on the processing

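The median over the members stayed above 0 in every alternative run, from 0.0096 without array 3 to 0.48 with normexp and median centring. Without array 3 it lay below the median of all genes tested, which was 0.04 in that run. The count of members at an unadjusted p under 0.05 was 2 as reported. It was 1 after normexp and loess, with only probes above background in both channels, with an intensity trend and with the mean of probes, 3 after normexp with median centring (Ibsp, Spp1 and Dmp1, where 38.9% of all genes passed), 0 without moderation, 0 to 2 when an array was left out (0 without array 2, 3 or 4), and 4 without arrays 1 and 2, a choice made after seeing the data. Normexp with median centring gave 1 member at an adjusted p under 0.05, Ibsp (0.54, adjusted p = 0.0355), where it moved the median of all genes from 0.04 to 0.19. It also moved Spp1 to 0.45 and Runx2 to 0.10. The number of members past 2-fold was 0 as reported and 2 without arrays 1 and 2. Bone genes outside the members at an unadjusted p under 0.05 numbered 5 as reported, 8 with an intensity trend, 10 after normexp and loess, 28 after normexp with median centring and 1 to 9 when an array was left out. Single members moved by more than their SD in 4 of 107 recomputed values, and Alpl, Ibsp, Mepe, Sost and Spp1 changed sign in at least 1. The causes of these shifts were not tested. The fit is itself paired by array, since every ratio compares the 2 extracts of an array, and the replicate number adds no further pairing. Dimness limits Runx2, since 1 of its 3 probes, A_52_P460545, was above background in every extract.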
